A study of Mus musculus with 6 samples.

Results

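The Usp17-like genes of the mouse, Usp17la, Usp17lb, Usp17lc, Usp17ld and Usp17le, are 5 closely related deubiquitinase genes on chromosome 7. They were taken as the 5 gene rows whose Ensembl identifiers carry those symbols, out of 41388 gene rows in the count table. Poly(A) RNA was sequenced from induced pluripotent stem cells (iPSCs), which are fibroblasts returned to a pluripotent state, in 3 miR-34a-/- (knockout) and 3 wild-type libraries. All 6 lines were C57BL/6, were made from embryonic fibroblasts of littermates with retroviral Oct4, Sox2 and Klf4, and were grown from picked colonies on irradiated fibroblast feeders, so every line carries the same 3 vector genes and every RNA sample may hold feeder RNA. The labels speak of 3 knockout and wild-type pairs and call the lines of a genotype independent, but do not say which lines share an embryo or litter or whether a replicate number marks a pair, so the p-values measure the spread between these lines.

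Ubiquitin-specific proteases are enzymes that cut ubiquitin off other proteins and can thereby spare them from degradation or change their signalling. The Usp17-like (DUB) genes are a branch of that class that multiplied by tandem duplication. Mouse Dub-1 was first described as a gene induced by interleukin-3 in blood cells and Dub-2 as one induced by interleukin-2 in T cells, and DUB3 is known to stabilise the cell cycle phosphatase CDC25A in mouse embryonic stem cells. Genes of this family are also part of the transcript set of the 2-cell embryo and of the rare embryonic stem cells that resemble it. RefSeq lists Dub1 as a synonym of Usp17la, Dub1a of Usp17lb, Dub2 of Usp17lc, Dub2a of Usp17ld and Dub3 of Usp17le.

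The 5 genes lie in 2 clumps on chromosome 7 (mm10, GENCODE M21 annotation). Usp17ld (ENSMUSG00000057321, 103249737 to 103252505, minus strand) and Usp17lc (ENSMUSG00000058976, 103415072 to 103419880, plus strand) start 162.6 kb apart. Usp17le (ENSMUSG00000043073, 104768049 to 104777470, minus strand), Usp17lb (ENSMUSG00000062369, 104840257 to 104842603, minus strand) and Usp17la (ENSMUSG00000054568, 104857009 to 104862667, plus strand) form the other clump, which begins 1362 kb from the start of Usp17lc. Usp17lb and Usp17la point away from each other with starts 14.4 kb apart. The annotated models used here, 1 transcript of each gene, have 2 exons in Usp17lb, Usp17lc and Usp17ld and 3 exons in Usp17la and Usp17le. Coding lengths are 1578 bases in Usp17la, 1401 in Usp17lb, 1635 in both Usp17lc and Usp17ld, and 1620 in Usp17le. Aligned coding sequences were between 90.8% (Usp17lb with Usp17le) and 98.4% (Usp17lc with Usp17ld) identical.

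Since the 5 genes were high in the same libraries, their upstream sequences are shown for the 4 members whose promoter window (250 bases before to 50 after the start, GRCm38.p6) RefSeq tables supplied, Usp17la, Usp17lb, Usp17lc and Usp17ld. Each stretch below is 90 bases, 5′ to 3′ on the gene's own strand, and was placed by its TATA-like hexamer. Capitals mark that hexamer, a CACCC box (CCACACCC) and every CCAAT box, which reads ATTGG on this strand.
Usp17la: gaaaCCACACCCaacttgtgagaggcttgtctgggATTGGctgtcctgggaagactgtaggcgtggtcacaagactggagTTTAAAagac
Usp17lb: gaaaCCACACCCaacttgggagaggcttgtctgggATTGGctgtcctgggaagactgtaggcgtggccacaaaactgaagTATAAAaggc
Usp17lc: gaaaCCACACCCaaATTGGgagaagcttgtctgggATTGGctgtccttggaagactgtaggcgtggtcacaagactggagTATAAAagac
Usp17ld: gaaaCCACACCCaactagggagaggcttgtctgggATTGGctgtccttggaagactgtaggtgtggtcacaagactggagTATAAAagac
They lie at chr7:104856890-104856979 (plus strand, Usp17la), chr7:104842605-104842694 (minus, Usp17lb), chr7:103416528-103416617 (plus, Usp17lc) and chr7:103252606-103252695 (minus, Usp17ld). The Usp17lc stretch sits before the RefSeq start and inside the first intron of the longer GENCODE model.

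Between 83 and 86 of the 90 bases were the same in each pair of these stretches. The TATA box letters TATAAA were found in 3 of the 4 windows, 31 bases before the RefSeq start in Usp17lb, 88 in Usp17lc and 110 in Usp17ld, while Usp17la has TTTAAA at the aligned place. Of all 32851 mouse promoter windows of the same length, 13.6% hold TATAAA on either strand. The CACCC box was in 4 of 4 windows against 3.56% of all, and CCAAT in 4 of 4 against 37.4%, both on either strand and both picked for search after the sequences had been seen. Neither the inverted-repeat DUX motif (0.0335% of all windows) nor the GATA motif AGATAA (11.2%) matched in the 4 windows, which says only that these letters are not there. The searched motifs do not overlap one another in these stretches.

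The missing microRNA has the mature sequence shown here, from RefSeq, with the seed (bases 2 to 8) in capitals.
mmu-miR-34a-5p: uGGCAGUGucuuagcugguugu
The 7 bases that pair with this seed, CACTGCC, were searched in 1 annotated transcript of each of the 5 genes. They occurred once, in the coding part of Usp17lb at coding bases 541 onward, and in none of the stretches after these stop codons. Usp17lb, Usp17lc and Usp17le have 2 annotated transcripts each, and the other transcript of each was not searched. The 27 bases around it, with the match in capitals, read as follows.
Usp17lb site: caagtgtcacCACTGCCagggcacctc
For comparison, 23.6% of 12336 protein-coding mouse transcripts of 1558 to 2656 bases, the range of the 5 members, hold the same 7 letters.

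Library totals ran from 8432597 to 29654855 counts, and knockout replicate 3 and wild-type replicate 2 were the shallowest. Levels are given as CPM, counts scaled to a common number of gene counts with TMM factors (a correction for library composition), and 3 counts correspond to between 0.107 and 0.375 CPM depending on the library. A gene is called here when its Benjamini-Hochberg adjusted p from the quasi-likelihood test of edgeR is under 0.05. By that rule 26.5% of the 14717 genes that passed the filter on low counts were higher and 24.0% lower in the knockout, and the median log2 fold change was 0.01. Mir34a itself had 3 counts over all 6 libraries, so it does not check the labels. Of 10 pluripotency markers 7 were higher, 1 lower and 2 not called, with summed levels of 7862 to 8255 CPM per knockout library and 6493 to 6622 CPM per wild-type library. Pou5f1 (Oct4) and Sox2, both called higher, are also vector genes, so their rows may hold vector reads, which was not tested.

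All 5 genes were high in every knockout library and near 0 in every wild-type library. Summed over the family, knockout replicates 1 to 3 held 1362, 1984 and 497 counts, and wild-type replicates 1 to 3 held 18, 4 and 6. The knockout lines thus averaged 66.9 ± 5.31 CPM and the wild-type lines 0.541 ± 0.179 CPM (mean ± SD, n = 3 each). The pooled counts, scaled for depth, stood at 117.7 to 1, and an exact 95% interval on that ratio, 81.3 to 177.4, covers counting error only. Within the knockout the family sum was 69 CPM in replicate 1, 70.9 in replicate 2 and 60.9 in replicate 3. The exact Poisson interval of replicate 3, 55.6 to 66.5 CPM, overlapped that of replicate 1 (65.4 to 72.7) and not that of replicate 2 (67.8 to 74.1). In bulk RNA such a level does not tell a few cells with much of the RNA from many cells with little, and a difference in cell number cannot be told apart from one in RNA per cell.

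The edgeR test called 5 of 5 members higher, where 26.5% of all tested genes were called higher. That count says little about the members, because each of them passed the low-count filter through the knockout libraries alone. Of the 216 tested genes with 11 or fewer wild-type counts in all, 11 being the highest sum of a member, 215 were called higher. The sizes of the differences are therefore given for each gene. A fitted log2 fold change at least as large as that of the lowest member was found in 82 of the 14717 tested genes, the 5 members included.

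Usp17le, the gene listed as Dub3, had the most counts. It was at 22.2, 20.9 and 19.4 CPM in knockout replicates 1 to 3 and at 0.328, 0.125 and 0.129 CPM in wild-type replicates 1 to 3, which were 8, 1 and 2 counts. Every knockout library lay above every wild-type one, as in 29.2% of all tested genes, and wild-type replicate 1 was the highest of the low group. The knockout mean was 20.8 ± 1.44 CPM and the wild-type mean 0.194 ± 0.116 CPM (SD, n = 3 each), and edgeR gave a log2 fold change of 6.47 with an SE of 0.209 (adjusted p = 1.1e-14).

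Usp17lc, the gene listed as Dub2, followed. Its levels were 17.5, 19.2 and 14.8 CPM in the knockout replicates and 0.123, 0.250 and 0.0644 CPM in the wild-type replicates, from 3, 2 and 1 counts. Knockout replicate 3 was the lowest and replicate 2 the highest of the knockout lines, and both lay far above every wild-type library. The log2 fold change was 7.05 (SE 0.250, edgeR adjusted p = 3.9e-14), and the pooled counts, 1005 against 6, had a ratio of 143.7 (counting interval 65.8 to 392.4).

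Usp17lb, listed as Dub1a, and its divergent neighbour Usp17la, listed as Dub1, came next, with Usp17lb the higher in each knockout library. Usp17lb was at 13.8, 14.1 and 11.4 CPM in the knockout replicates and had 2, 0 and 1 counts in the wild-type replicates. Its 762 knockout counts against 3 stood at 217.9 to 1 (counting interval 74.3 to 1058.8). Usp17la was at 10.5, 11.6 and 10.2 CPM in the knockout replicates and had 4, 0 and 2 counts in the wild-type replicates, and the groups did not overlap for either gene. The log2 fold change of Usp17la was 6.36 (SE 0.271, edgeR adjusted p = 5.8e-13), and its pooled ratio was 87.9 (40.2 to 240.5).

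Usp17ld, listed as Dub2a, was the lowest of the 5. It was at 4.91, 5.04 and 5.14 CPM in knockout replicates 1 to 3, and had 1, 1 and 0 counts in the wild-type replicates. Its coefficient of variation over the knockout lines, 2.30%, was below the 6.93% of Usp17le, 7.05% of Usp17la, 11.5% of Usp17lb and 12.9% of Usp17lc, differences that were not tested. It rests on 97, 141 and 42 counts, whose counting error alone is larger than 2.30%, so it does not show a steadier gene. With 280 counts against 2 the ratio was 120.1 (32.9 to 996.4). The counting intervals of the 5 ratios, wide at this wild-type depth, all overlapped. The edgeR log2 fold changes ran from 6.36 (SE 0.271) in Usp17la to 7.585 (SE 0.286) in Usp17lb. Whether members differed from one another in the size of the difference between the genotypes was not tested.

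**Figure D1:**
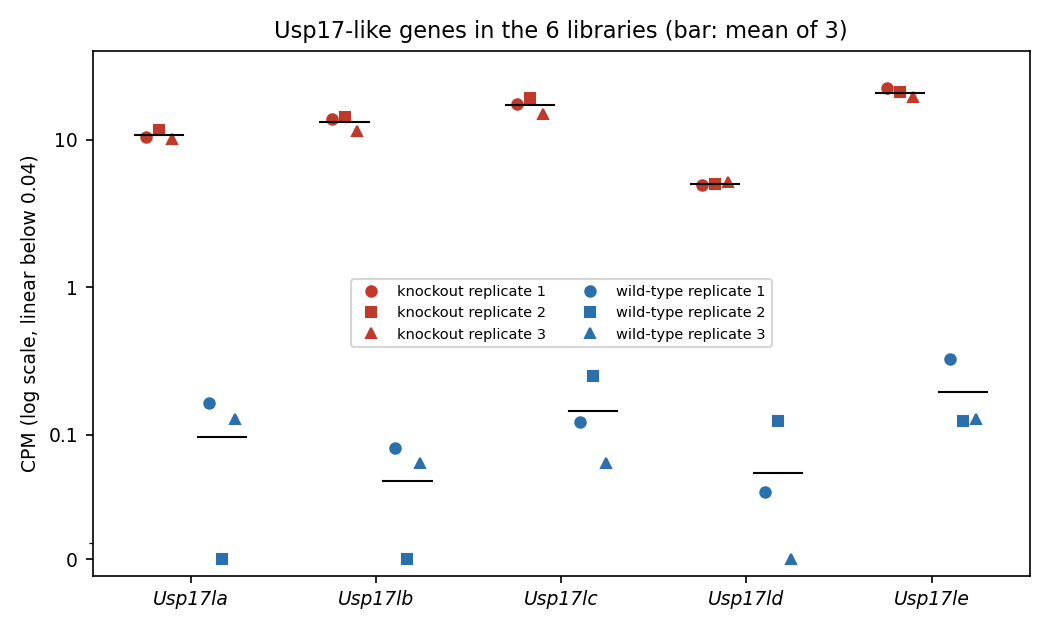
CPM of each Usp17-like gene (vertical axis, logarithmic above 0.04 CPM and linear below) in the 3 knockout (red) and 3 wild-type (blue) libraries, marker shape giving the replicate and the black bar the mean of 3. All knockout points lie between 4.91 and 22.2 CPM, and all wild-type points at or below 0.328 CPM.

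The 5 genes kept nearly the same proportions in each knockout line. Usp17le supplied 32.2%, 29.4% and 31.8% of the family counts in knockout replicates 1 to 3, and Usp17lc supplied 25.4%, 27.1% and 24.3%. The shares were 20.0%, 20.0% and 18.7% for Usp17lb, 15.2%, 16.4% and 16.7% for Usp17la, and 7.12%, 7.11% and 8.45% for Usp17ld. For each gene the exact (Clopper-Pearson) 95% intervals of the 3 knockout libraries overlapped, for example 29.8% to 34.8%, 27.4% to 31.5% and 27.7% to 36.1% for Usp17le. In the wild-type libraries the 28 counts of the family split into 11 of Usp17le, 6 each of Usp17lc and Usp17la, 3 of Usp17lb and 2 of Usp17ld. Each pooled wild-type interval contained the pooled knockout share of its gene, but those intervals are wide (21.5% to 59.4% for Usp17le against a knockout share of 30.7%), so a different make-up was not detectable at this depth.

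**Figure D2:**
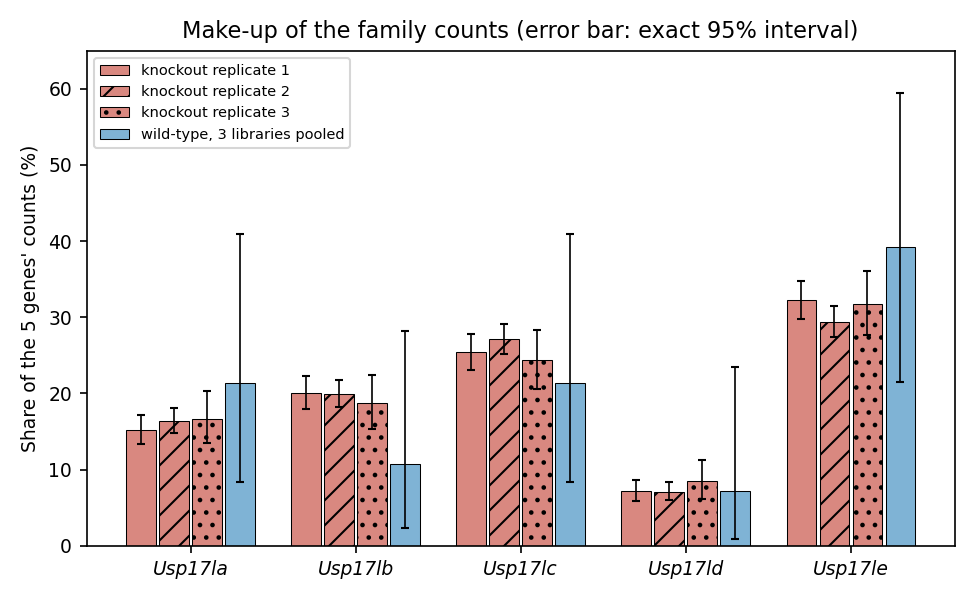
Share of the counts of the 5 genes that fell on each gene (vertical axis, percent) in each knockout library (red) and in the 3 wild-type libraries pooled (blue), with exact 95% intervals as error bars. Usp17le holds the highest share and Usp17ld the lowest of the family in every knockout library, and the wild-type intervals, from 28 counts in all, are several times wider.

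Per length the order changed slightly. Divided by the kilobases of annotated exon, the knockout level was 10.5 ± 0.725 CPM per kb for Usp17le, 8.41 ± 0.965 for Usp17lb, 7.01 ± 0.904 for Usp17lc, 4.05 ± 0.286 for Usp17la and 2.53 ± 0.0583 for Usp17ld (n = 3 each). Usp17lb and Usp17lc overlapped across lines, with 7.30 to 9.06 and 6.04 to 7.83 CPM per kb. The other neighbours in that order did not overlap, Usp17le having at least 9.74 CPM per kb and Usp17la between 3.83 and 4.37. These levels rest on the GENCODE exon models, and the sources used here do not give the authors' own models. All exon bases were counted alike, although 48.9% (Usp17ld) to 80.7% (Usp17la) of a member's 50-base stretches occur in no other annotated gene. Since the counting of shared reads is not stated, the order per length is not settled.

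Reads of these genes can be hard to place, which limits the levels of single members. If reads with several matches were dropped, the family sum is limited too. Of all 50-base stretches in the annotated transcripts, 80.7% of those in Usp17la, 78.6% in Usp17lb, 70.2% in Usp17le, 55.3% in Usp17lc and 48.9% in Usp17ld occurred in no other annotated gene. Usp17lc and Usp17ld shared most, with 50.4% of the Usp17ld stretches also present in Usp17lc and 41.5% of the Usp17lc stretches present in Usp17ld. All other pairs shared between 2.35% and 15.3%. The pseudogene Gm5053 held 4.01% to 11.2% of the stretches of a member and the pseudogene Usp17le-ps 0.340% to 8.07%. Usp17le-ps, inside the cluster at 104652252 to 104653208, had 0 counts in every library, and no row of the count table carried the symbol Gm5053. The sources used here do not say how reads with several matches were counted, so the share of such reads in each row was not tested.

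**Figure D3:**
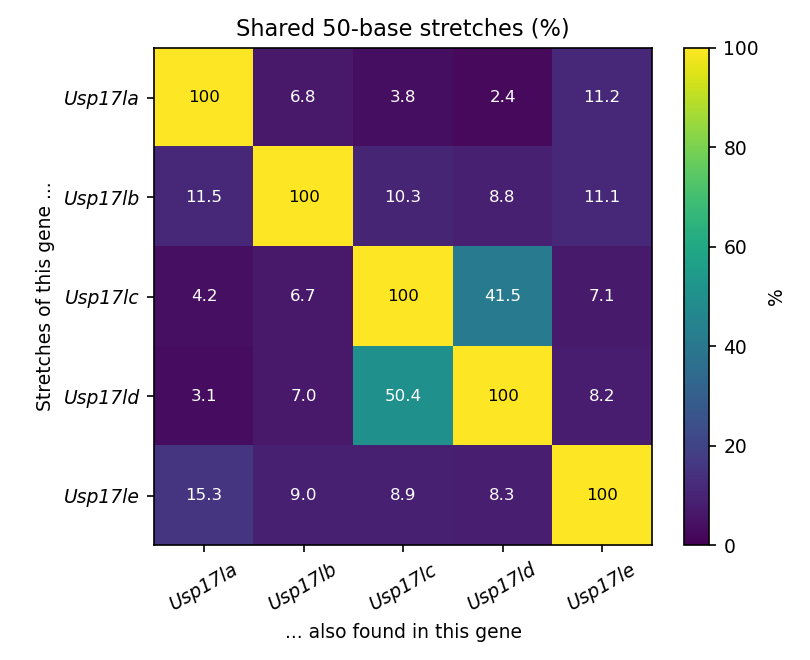
Percentage of the 50-base stretches of one gene (rows) that also occur in another (columns), from GENCODE M21 transcripts. Usp17lc and Usp17ld stand out with 41.5% and 50.4%, and every other pair is at 15.3% or less.

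Few of the genes around the members had enough counts to be tested, and those that did were not called. Within 500 kb of the start of a member lay 136 other gene rows, among them 103 olfactory receptor genes, 9 Trim genes (a family with antiviral members) and 7 beta-globin genes. Of the 136 rows, 118 had 0 counts in every library, and 3 passed the low-count filter. The stretch between the 2 clumps that lies farther than 500 kb from every member was not examined. None of the 3 tested rows was called by edgeR, DESeq2 or limma voom, where edgeR called 50.5% of all tested genes. The adjusted p from edgeR was 0.24 for Trim12a, 0.66 for Olfr613 and 0.92 for Trim12c, and the unadjusted p of each was above 0.05. Trim12a, the most abundant, ranged from 6.18 to 8.08 CPM over the knockout libraries and from 6.60 to 11.8 CPM over the wild-type ones, and the groups overlapped. Trim12a was called lower when wild-type replicate 1 was left out (log2 fold change -0.54, edgeR adjusted p = 0.021) and with no filter beyond 1 count (log2 fold change -0.34, edgeR adjusted p = 0.038), where Trim5 was called lower as well. Without wild-type replicate 3, which held its highest level, its log2 fold change was -0.0069 (edgeR adjusted p = 0.97). Summed, the 136 rows held 9.52 to 14.9 CPM per knockout library and 10.7 to 15.6 CPM per wild-type library, against 60.9 to 70.9 and 0.386 to 0.737 CPM for the 5 Usp17-like genes.

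**Figure D4:**
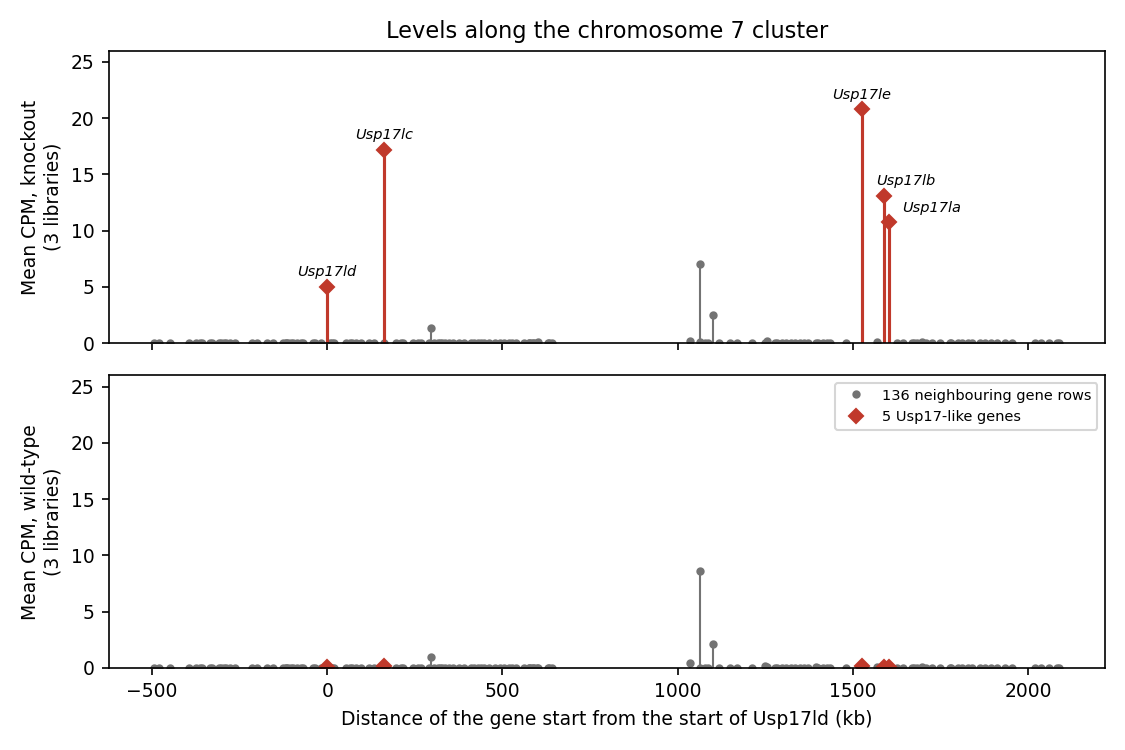
Mean CPM over 3 knockout (top) and 3 wild-type libraries (bottom) of the 5 Usp17-like genes (red diamonds) and of 136 neighbouring gene rows (grey), by distance in kb of the gene start from that of Usp17ld. The red points rise to between 5.03 and 20.8 CPM in the knockout and stay at or below 0.194 CPM in the wild-type lines, while the highest grey point is Trim12a in both panels.

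The differences of other ubiquitin-specific protease genes were far smaller. Of 52 listed, 50 were tested, 9 were higher, 20 lower and 21 not called, where 26.5% of all tested genes were higher and 24.0% lower. Their median log2 fold change was -0.08 against 0.01 over all tested genes. None of the 50 came near the Usp17-like genes, the range being -0.68 to 2.31. The 3 with the smallest p were X-linked and higher. Usp11, which acts in DNA repair and chromatin regulation, had 79.2, 85.5 and 80.6 CPM in knockout replicates 1 to 3, against 29.2, 31.6 and 33.0 CPM in wild-type replicates 1 to 3 (edgeR log2 fold change 1.4 with an SE of 0.0670, adjusted p = 3.0e-12). Usp27x rose by 1.85 and Usp26, known from testis, by 2.31 on the log2 scale, and neither overlapped between the groups. Every knockout library lay above every wild-type one in 29.2% of all tested genes. The X chromosome as a whole moved the same way, with 54.3% of 512 tested X-linked genes called higher at a median log2 fold change of 0.37. The part of that shift in these 3 genes was not tested.

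Among the 45 tested autosomal members of this list, 5 were higher, 20 lower and 20 not called, with log2 fold changes between -0.68 and 0.41. For comparison, 3600 of all 14105 tested autosomal genes were higher and 3428 lower. Usp28, which stabilises MYC and checkpoint proteins, had 108.4, 114.2 and 108.6 CPM in the knockout replicates, against 171.1, 163.6 and 169 CPM in the wild-type replicates (edgeR log2 fold change -0.60 with an SE of 0.0519, adjusted p = 1.3e-08). The splicing protein gene Usp39 fell by 0.38 on the log2 scale. The X-linked Usp9x was called higher at 0.49, and Usp51 was at -0.50 without passing the test (edgeR adjusted p = 0.16). Summed, the 52 genes held 4094 to 4226 CPM per knockout library and 4204 to 4282 CPM per wild-type library, where the 5 Usp17-like genes held 60.9 to 70.9 and 0.386 to 0.737 CPM.

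**Figure D5:**
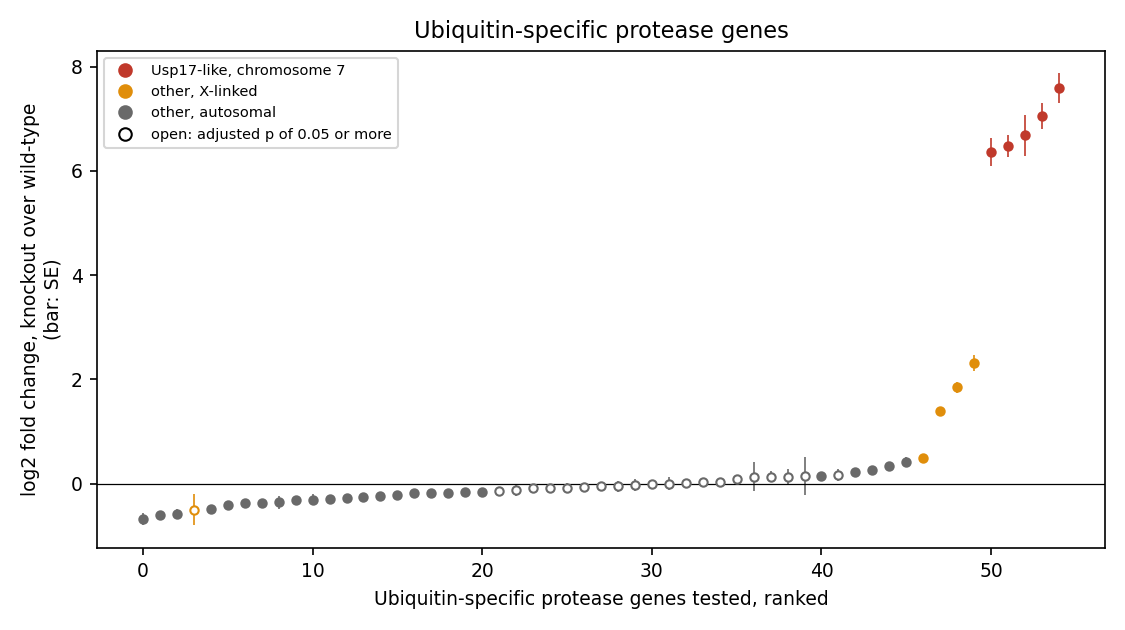
Log2 fold change of knockout over wild-type (vertical axis, bar: SE) of the 55 ubiquitin-specific protease genes tested, ranked. The 5 Usp17-like genes (red) lie between 6.36 and 7.59, the X-linked Usp26 at 2.31 is the highest of the others, and all autosomal others (grey) lie between -0.68 and 0.41.

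Most transcripts of proteins reported as substrates of USP17 or DUB3 enzymes were not called. Of 17 listed genes 15 were tested, 3 were higher, 2 lower and 10 not called, with a median log2 fold change of -0.07. Over all tested genes 26.5% were higher and 24.0% lower. These are RNA levels, whereas a deubiquitinase acts on proteins, which were not measured. Cdc25a, the phosphatase gene named above, had 130.9, 132.1 and 135.3 CPM in the knockout replicates, against 151.4, 158.2 and 152.6 CPM in the wild-type replicates (edgeR log2 fold change -0.21 with an SE of 0.0507, adjusted p = 0.0016). The groups did not overlap, but the share of all tested genes that do so in this direction was not counted. The difference was small beside that of the Usp17-like genes. Ddx58, which encodes the RNA sensor RIG-I, fell by 0.39 on the log2 scale, while Elk1, an X-linked transcription factor gene, rose by 0.69. The other 2 called higher, Traf3 at 0.20 and the survival gene Mcl1 at 0.13, lost their call under several alternatives (5 and 9 of 14). Rce1, which processes RAS proteins, lay at -0.16 on the log2 scale and was not called (adjusted p = 0.094 by edgeR).

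Receptor genes of the cytokines that gave Dub-1 and Dub-2 their description ranged from 0 counts to 9.22 CPM (Il3ra in knockout replicate 1). Of 13 genes of interleukin-2 and interleukin-3 signalling 7 were tested, 5 were higher and 1 lower, with a median log2 fold change of 0.39. The shares over all tested genes were 26.5% higher and 24.0% lower. Il2ra averaged 0.0119 CPM over the knockout and 0.0351 CPM over the wild-type libraries, and Il2 and Csf2rb, which encodes the chain through which interleukin-3 signals, had 0 counts in all 6. Csf2rb2 had 3 counts, all in knockout replicate 2. Il2rb was at 0.861, 0.893 and 0.245 CPM in the knockout replicates and at 0.125 CPM or less in the wild-type replicates, too few counts to be tested. Il2rg, X-linked, averaged 3.21 and 2.50 CPM in the 2 groups and was not called (edgeR adjusted p = 0.17). Il3ra, the interleukin-3 receptor chain, averaged 7.99 ± 1.42 and 5.98 ± 0.451 CPM (SD, n = 3 each) and was called higher although the groups overlapped (edgeR adjusted p = 0.034). Jak3, the kinase of the interleukin-2 receptor, ranged from 46.7 to 53.0 CPM over the knockout libraries and from 73.0 to 82.6 CPM over the wild-type ones (edgeR log2 fold change -0.63, adjusted p = 2.0e-07). Stat5a and Stat5b, transcription factor genes downstream of both receptors, rose by 0.76 and 0.59 on the log2 scale. Markers of blood cells, in which the Dub genes were first described, summed over 8 genes to at least 6.98 CPM in a knockout library and at most 6.37 CPM in a wild-type library. Ptprc, the pan-leukocyte marker, averaged 0.0646 and 0.0631 CPM in the 2 groups, and the 3 markers that could be tested, Spi1, Cd3e and Cd79a, were called higher.

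Several genes known from the 2-cell embryo also differed between the genotypes, by fitted fold change some more than the Usp17-like genes, some as much and some less. In the same libraries Zscan4c was at 16.4, 13.7 and 16.8 CPM in the knockout replicates with 2 wild-type counts in all, and Tmem92 at 32.9, 33.6 and 30.6 CPM with 4. Of 12 matched comparison genes 11 were tested, with a median log2 fold change of 6.72 and a range of 4.04 to 8.49. All 11 were called higher, where 26.5% of all tested genes were. As for the members, that count says little, because low wild-type counts make the call nearly certain. Of the 216 tested genes with 11 or fewer wild-type counts, 215 were called higher. Only Zfp352 (14) and Chit1 (21) of the tested comparison genes had more wild-type counts than that. Tmem92 (8.49), Zscan4c (8.30), Zscan4f (7.90), Tcstv1 (7.80) and Tdpoz3 (7.65) had larger log2 fold changes than the highest Usp17-like gene, Usp17lb at 7.585. Tdpoz3 (SE 0.891) had 82 knockout and 0 wild-type counts, so its pooled ratio has only a lower counting bound, 18.6. Tcstv1 had 1 wild-type count and a counting interval of 53.1 to 11789. The intervals of Tcstv1, Tmem92, Zscan4c and Zscan4f all overlapped that of Usp17lb, 74.3 to 1058.8. Zfp352 (4.04), Duxf3 (4.56), Chit1 (5.55) and Zscan4d (5.90) had smaller log2 fold changes than the lowest Usp17-like gene, Usp17la at 6.36. The differences between these fold changes were not tested. The pooled count ratio of Zfp352, 16.9 (counting interval 9.91 to 31.3), lay below the interval of every Usp17-like gene. Knockout means of the tested genes ran from 1.30 CPM (Tdpoz3) to 32.4 CPM (Tmem92), and Tdpoz3, Duxf3 and Tcstv3 (2.78 CPM) were among those that lay below the 5.03 CPM of Usp17ld. Duxf3, which encodes the 2-cell transcription factor DUX, averaged 2.24 ± 0.399 CPM over the knockout and 0.111 ± 0.127 CPM over the wild-type lines (SD, n = 3 each). Zscan4f was more uneven over the knockout lines than any Usp17-like gene, at 19.2, 16.7 and 32.9 CPM with the highest value in replicate 3, where the Usp17-like sum was lowest. The MERVL-int family of retroviral repeats, which is read in 2-cell embryos, had 973.5, 922.4 and 1031 CPM in the knockout replicates and a wild-type mean of 52.7 ± 2.08 CPM (SD, n = 3), a log2 fold change of 4.21. MT2_Mm, the LTR that goes with it, rose by 2.54, whereas MERVL_2A-int averaged 86.8 and 88.8 CPM and was not called (edgeR log2 fold change -0.035, adjusted p = 0.80).

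Over the 6 libraries, the log2 CPM of the summed family was most like that of Gm5939 (Pearson r = 0.9996), Unc13b (0.9996), ENSMUSG00000086151 (0.9995), Camk1d (0.9995), Wdr7, Zbtb43, AU022751, Des, Gm6803 and Dpysl4, among 13366 other genes with a mean of at least 1 CPM. These values describe 2 well-separated groups of 3, and 339 genes (2.54%) reached 0.99 or more. The likeness takes no account of size, since Wdr7 differed by 0.30 and Gm5939 by 6.67 on the log2 scale.

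Markers of other cell types were called in both directions, where 26.5% of all tested genes were called higher and 24.0% lower. Of 12 fibroblast markers, which feeder cells would bring, 11 were tested, 8 were lower, 1 higher and 2 not called, and all 12 summed to 339.9 to 416.1 CPM per knockout library and 485.4 to 679.1 CPM per wild-type library. The largest of these differences was that of Postn, at 2.05 ± 0.599 against 15.7 ± 1.84 CPM (SD, n = 3 each; log2 fold change -3.03, edgeR adjusted p = 6.0e-11). Of 8 primitive endoderm markers 6 were higher and 2 not called, with log2 fold changes up to 1.98, and of 8 trophoblast markers 2 were higher, 3 lower, 2 not called and 1, Elf5, not tested. Their sums were 288.2 to 334.2 against 252.1 to 299.4 CPM for the endoderm markers, which overlapped, and 104.9 to 107.5 against 179.1 to 197.6 CPM for the trophoblast markers. The part of such cells in the levels of the Usp17-like genes was not tested.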

How the data were processed

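The 5 Usp17-like genes were measured in 6 poly(A) RNA libraries, 3 knockout and 3 wild-type, grouped by the titles. The authors deposited raw counts per gene and repeat family (41388 and 902 rows), whole numbers without normalization, per the labels and the values. The tools listed in the submitters' processing notes are TopHat2 2.0.11 and featureCounts 1.4.5, with the build mm10 and no counting options. The 6 columns of a second table match no label and were not used. The members and lists were chosen with earlier results of these data known. Counts were filtered with filterByExpr, scaled with TMM and tested with edgeR 4.0.16 (glmQLFit, robust = TRUE, two-sided) in R 4.3.3, adjusted over 14717 genes. A gene was called at an adjusted p under 0.05. SE is the log2 fold change over the square root of F. Symbols came from GENCODE M21, which matched 40254 rows. Named genes are the members, the genes of smallest p in each list, called neighbours, the 10 genes most alike (log2 CPM, prior count 2) and fixed 2-cell genes and repeats. The neighbours Trim12a, Trim12c, Olfr613 and Trim5, and the genes Usp9x, Usp51, Rce1, Gm5053, Il2, Il2ra, Il2rb, Il2rg, Il3ra, Csf2rb, Csf2rb2 and Postn, were named after their values were seen. The steps were tested on simulated data. Alternatives used DESeq2 1.42.0, limma 3.58.1, other scalings and filters, a replicate block and each library left out.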

Additional observations from a re-analysis of the deposited data

How the results depend on the processing

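Over the 14 alternatives the log2 fold changes were 6.11 to 6.87 for Usp17la, 7.31 to 8.05 for Usp17lb, 6.76 to 7.36 for Usp17lc, 6.13 to 7.31 for Usp17ld and 6.20 to 7.27 for Usp17le. Every member was called higher in each, which its low wild-type counts make nearly certain. With the replicate number as a block, 5 of 5 members, 9 and 20 other ubiquitin-specific proteases and 7833 genes in all were called. The main fit had no block because the labels do not say that a number marks a pair, and it called 7433 genes. Deviations of same-numbered lines correlated at 0.23, 0.0042 and 0.23, and those of different-numbered lines at -0.26 to 0.13. These values do not settle whether same-numbered lines are pairs. Substrates called higher numbered 1 instead of 3 with DESeq2 and with no filter beyond 1 count, and 1 to 2 when a library was left out, with 1 without wild-type replicate 2 or 3. Substrates called lower numbered 2 to 4 over the left-out libraries, with 4 without knockout replicate 3. Neighbours called numbered 2 with no filter beyond 1 count and 0 to 1 over the left-out libraries. Genes of interleukin signalling called higher numbered 3 with DESeq2 and 3 to 6 over the left-out libraries. Trim12c turned to -0.039 with limma voom and ranged from -0.19 to 0.21 over the left-out libraries, being below 0 without knockout replicate 3 or wild-type replicate 2 or 3. Olfr613 ranged from -0.11 to 0.40 over the left-out libraries, being below 0 without knockout replicate 3. The causes were not tested. Over all genes 6118 to 7985 were called when a library was left out. A wild-type level under 3 counts per library was not resolved.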
